A study of Drosophila melanogaster with 12 samples.

Results

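In the transcripts of *Mettl16* mutant males, 4254 of 21991 listed m6A peaks (19.3%) were annotated to a 5′ UTR, the stretch of an mRNA ahead of its coding sequence. They were the rows whose annotation is the 5′ UTR in the deposited peak list of the mutants, and they belonged to 3317 of the 12368 genes that had any peak there. By the same annotation, 624 of the 3088 rows (20.2%) in the deposited table of peaks that differed between genotypes lay in a 5′ UTR, in 580 genes. Among the listed rows, the annotation was the only criterion applied here. The rows themselves came from peak calling, so enrichment and the level of a transcript had a part in which peaks were listed.

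The data are MeRIP-seq of whole adult males of 2 genotypes, *w1118* as the control and *Mettl16* 1-9, a frameshift allele made with CRISPR/Cas9 in the first exon of the gene. Each of the 3 replicates per genotype was poly(A) RNA of about 50 flies, sequenced after capture with an m6A antibody (IP) and without capture (input). Nothing in the labels gives the age of the flies, and the males of both genotypes included every organ, so fewer cells of a type and less RNA per cell cannot be told apart. Peaks were called on the pooled replicates of a genotype, so each has a single value and no replicate error. Expression was measured in the 6 input libraries, 3 per genotype.

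m6A is a methyl group on the N6 position of adenosine. In *Drosophila* the Mettl3-Mettl14 complex, with partners such as Fl(2)d, Virilizer, Nito and Hakai, places most of it on mRNA, and the proteins Ythdc1 and Ythdf read it. Mettl16 is a separate methyltransferase whose best known target is the U6 spliceosomal RNA. A 5′ UTR belongs to the isoforms that start upstream of it, and many fly genes have alternative first exons, so a peak there can belong to some of a gene's transcripts and not to others. Ribosomes scan through this region to reach the start codon. In flies the 5′ UTR is a well known place of m6A.

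*Mettl16* was lower in each mutant library, at 0.430, 0.285 and 0.232 FPKM (fragments scaled to transcript length and library size) against 0.971, 0.824 and 1.19 FPKM in *w1118* (log2 fold change -0.60, standard error 0.11, limma adjusted p = 0.0031). The input libraries held 5.32 to 6.48 aligned gigabases, and 17763 to 18106 genes had a value above 0. Of 10 spermatid marker genes, 9 were lower in mutants, with a summed level of 1031 to 1197 FPKM against 1607 to 1764, and all 9 accessory gland markers were lower, with 3473 to 4282 against 5678 to 6222. None of these 19 markers had a 5′ UTR peak. Of 10 neuronal markers 9 had one, and their summed level was 147.8 FPKM in *w1118* replicate 1, 113.4 and 119.4 in the other two controls and 131.4, 137.5 and 134.5 in mutants. Of 64 neuronal adhesion and ion channel genes with a 5′ UTR peak, 47 were highest in *w1118* replicate 1 among the controls, at a median of 111% of the control mean. The counts over gene lists and over all genes with a 5′ UTR peak are therefore also given without that library.

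5′ UTR peaks had a higher enrichment than peaks in 3′ UTRs and coding exons. Their median log2 enrichment of IP over input was 2.85 (quartiles 1.72 and 3.73), against 2.28 in 3′ UTRs, 1.26 in coding exons and 2.32 over all rows. Intronic rows had 2.96 and the 1787 rows in exons of non-coding RNAs 2.74. An enrichment above 4 on the log2 scale was listed for 693 of the 5′ UTR rows (16.3%), against 5.69% of the 3′ UTR rows and 38 of the 238 intronic ones. At the other end, 413 5′ UTR rows (9.71%) were below 1. An FDR under 0.05 was given for 4080 of the 5′ UTR rows (95.9%), close to the 96.4% of 3′ UTR rows. The values are pooled, so these differences between annotations carry no test.

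**Figure D1:**
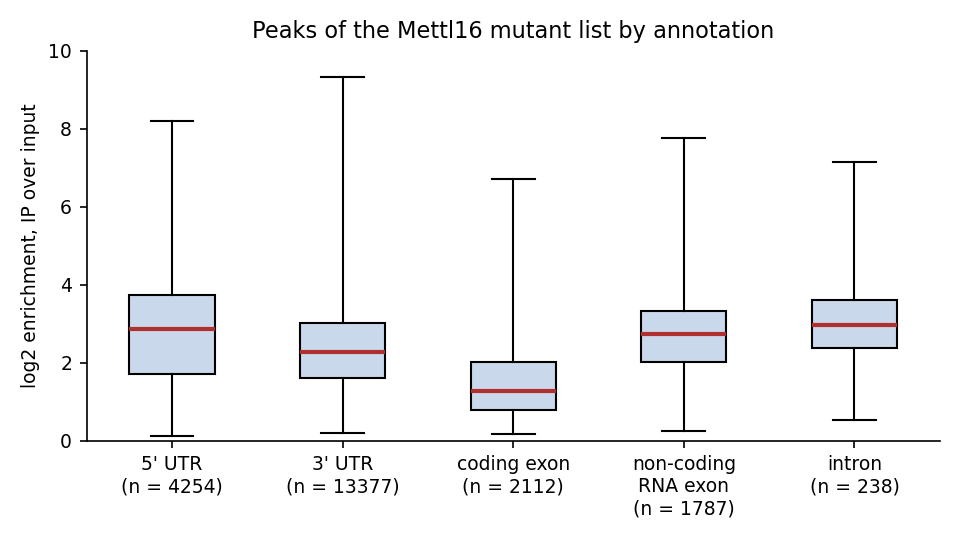
Log2 enrichment of IP over input for the rows of the *Mettl16* mutant peak list, by annotation; boxes span the quartiles, red lines are medians and whiskers reach the lowest and highest row. The median is 2.85 for 5′ UTR rows and 1.26 for coding exon rows, and the highest row of all, at 9.32, is in a 3′ UTR.

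Among peaks with an FDR under 0.05 in genes of at least 5 FPKM, the highest was in *Fib*, which encodes fibrillarin, the methyltransferase of box C/D snoRNPs (2R, 23074038 to 23074695), with a log2 enrichment of 8.21. It was followed by *dnc*, the cAMP phosphodiesterase Dunce of learning and memory (X, 3176440 to 3190576), at 5.91. *Unr*, an RNA-binding protein with cold shock domains that acts in translation, had 5.88 (3L, 8438277 to 8442381). *cnc*, the fly counterpart of the oxidative stress factor Nrf2, had 5.83 (3R, 23200294 to 23209355). *fog*, a secreted signal of gastrulation, reached 5.80 (X, 22844821 to 22855194), and *grnd*, a receptor for the TNF ligand Eiger, 5.68 (2L, 18485417 to 18486017). The remaining ones of the 10 highest were *pkaap* (5.65), the zinc finger gene *salr* (5.65), *CG43897* (5.61) and *Btk29A*, a Tec family tyrosine kinase (5.51).

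These 10 genes did not share a direction in the input libraries, where limma called 22.9% of all 13866 tested genes higher in mutants and 26.7% lower. Levels of *CG43897* were 131.6, 157.1 and 149.6 FPKM in *w1118* and 270.1, 248.5 and 253.1 FPKM in mutants, with no overlap (log2 fold change 0.81, standard error 0.08, limma adjusted p = 0.00011). *fog* was at 4.46, 4.02 and 4.09 FPKM in *w1118* and at 5.90, 6.16 and 5.78 FPKM in mutants (0.42, limma adjusted p = 0.0012). Called higher as well were *Fib*, *pkaap* and *Btk29A*, with log2 fold changes of 0.30, 0.28 and 0.27. *Btk29A* missed the threshold when *Mettl16* 1-9 replicate 1 or 2 or *w1118* replicate 2 or 3 was left out (limma adjusted p between 0.053 and 0.063). *salr* was called lower, from a mean of 6.49 to 5.14 FPKM (-0.29, limma adjusted p = 0.0093). *dnc*, *Unr*, *cnc* and *grnd* were not called, with log2 fold changes between 0.00 and 0.17, but *grnd* was called higher without *Mettl16* 1-9 replicate 1 (limma adjusted p = 0.046) and with upper quartile scaling (0.012). In the highest of these genes by enrichment, *Fib*, the control libraries had 6.80, 5.91 and 7.32 FPKM and the mutant libraries 8.41, 8.59 and 8.35.

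5′ UTR peaks were long on the genome and often lay at annotated transcript starts. The peak caller, exomePeak, works on joined exons, so the first and last base of a peak can stand on either side of an intron. The median distance between them was 719 bp, against 238 bp in 3′ UTRs, and it exceeded 1000 bp in 1819 rows (42.8%), against 3.91% of the 3′ UTR rows. In 1888 rows (44.4%) the peak began exactly at the annotated 5′ end of an isoform of its gene, and 2584 (60.7%) held at least 1 such end. Starts were counted between the first and last base on the genome, so a start in a spanned intron counts as inside. Several different starts were inside 600 peaks (14.1%). The peaks without a start inside lay a median of 119 bp downstream of the nearest start. The annotation itself asks for an exon ahead of the coding sequence, so a place close to a start follows in part from the rule.

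Enrichment differed with these features among the 5′ UTR peaks themselves. The 2584 rows with a start inside had a median log2 enrichment of 3.25 and the 1670 without one 2.09. Their median spans were 1078.5 and 447 bp, and the part of span in this difference was not tested. Rows that spanned more than 1000 bp had a median of 3.52 and the others 2.23. The median fell with the level of the gene, from 3.27 in genes under 1 FPKM (290 rows) through 3.16 at 1 to 5 FPKM, 2.84 at 5 to 20 FPKM and 2.18 at 20 to 100 FPKM to 1.66 in genes of at least 100 FPKM (96 rows). These are descriptions of rows that share libraries, and the part that detection at low levels has in them was not tested.

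Some genes carried several 5′ UTR peaks. Of the 3317 genes, 2652 had 1 row, 495 had 2, 108 had 3, 34 had 4 and 28 had 5 or more. *Pif1B* had the most, with 8 rows, but these were 4 pairs of nearly identical regions, with enrichments from 0.62 and 0.63 (3R, 8782572 to 8783174) up to 4.05 in both rows of the last pair (3R, 8797657 to 8800721). *mtd*, with 22 annotated isoforms and 11 different starts, had 7 rows between 2.39 and 4.65. *SNF4Agamma*, the regulatory gamma subunit of AMP-activated kinase, had 6 rows with enrichments of 5.01, 3.20, 3.91, 4.42, 3.29 and 1.83 along 3R from 21140739 to 21210544. *pyd*, the counterpart of the tight junction protein ZO-1, had 6 rows between 3.16 and 4.55, and *Stacl* 6 between 1.61 and 3.74. Over the 665 genes with more than 1 row, the highest and lowest row differed by a median of 1 on the log2 scale (quartiles 0.39 and 1.98), and by more than 2 in 165 genes. In all, 160 rows overlapped another 5′ UTR row of the same gene.

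Among the genes with 5′ UTR peaks were some that the study's text mentions, namely *dpp*, *how*, *PPP1R15*, *Rheb* and *tj*, and *Gprk2* and *Sxl* of the kinase and splicing lists. *dpp*, the BMP ligand of wing and gut patterning, had a row of 2.61 (2L, 2428372 to 2450233) and one of 3.89 (2L, 2450293 to 2454776), each with 2 isoform starts inside. *how*, a STAR family RNA-binding protein of muscle and tendon, had 3.91 (3R, 22042191 to 22043191) at an expression of 23.2, 20.3 and 19.0 FPKM in *w1118* and 28.8, 28.2 and 29.0 FPKM in mutants (log2 fold change 0.44, limma adjusted p = 0.0018). *Gprk2*, whose receptor kinase acts in Hedgehog signalling, had 8.77, 7.85 and 8.31 FPKM in *w1118* and 11.7, 11.3 and 10.3 FPKM in mutants (0.38, limma adjusted p = 0.0030). *Sxl*, the master gene of female sex determination, had rows of 1.63, 1.87 and 4.68 on the X, the highest at 7097637 to 7098053, which holds 2 isoform starts. *PPP1R15*, a subunit that directs a phosphatase to eIF2alpha, had 3.01, the TOR activator *Rheb* 1.04 and the gonad factor *tj* 2.68. *Sxl*, *PPP1R15* and *Rheb* were not called in the input libraries, nor was *dpp*, and *tj*, under 0.5 FPKM on average, was not tested.

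*Tor*, which encodes the growth kinase of the TOR complexes and is a gene of the kinase list, stood in both peak tables. Its 5′ UTR peak (2L, 13004480 to 13004749) begins at the transcript start and had a log2 enrichment of 2.96 in mutants. The mutant to control log2 fold change of that enrichment was 0.72, with an FDR of 0.083 in the deposited table. In the input libraries *Tor* was at 4.76, 4.48 and 4.95 FPKM in *w1118* and at 8.89, 8.45 and 7.76 FPKM in mutants. The groups did not overlap (log2 fold change 0.71, standard error 0.07, limma adjusted p = 0.00014).

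Most genes with a 5′ UTR peak also had one in the 3′ UTR. A row there was listed for 2939 of the 3317 genes (88.6%) and a coding exon row for 591, while 316 had no row of another annotation. Within the 2939 genes, the enrichment of the 5′ UTR exceeded that of the 3′ UTR in 1523 (51.8%), with a median difference of 0.08 (quartiles -0.90 and 1.12). The higher median over all 5′ UTR rows is thus not seen as a shift within the genes that have both. With the row of highest enrichment per gene the share was 50.8%, and with rows of FDR under 0.05 it was 52.2%. A difference beyond 2 was found in 308 genes in favour of the 5′ UTR and in 243 in favour of the 3′ UTR.

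Among genes of at least 5 FPKM, *Fib* had the largest excess in its 5′ UTR, with 8.21 there and 2.57 in the 3′ UTR (2R, 23072909 to 23073119). In *grnd* the values were 5.68 and 1.32, in *fog* 5.80 and 1.5, in *Sema1b*, a transmembrane semaphorin, 5.48 and 1.32, and in the Sox family factor *Sox102F* on chromosome 4 they were 5.15 and 1.32. The reverse order was found in *cpa*, the alpha subunit of actin capping protein, with 0.40 in the 5′ UTR (2R, 21057787 to 21057877) and 6.19 in the 3′ UTR (2R, 21059613 to 21059853). The ubiquitin ligase gene *Cbl* had 0.85 and 6.48. *mts*, the catalytic subunit of protein phosphatase 2A, had 1.06 and 5.87, the kinase gene *Slik* 2.06 and 6.62, and *CG7059* 2.01 and 6.50. Of these 10 genes, 5 were called higher in mutants (*Fib*, *fog*, *Sema1b*, *Cbl* and *mts*) and 1 lower (*CG7059*), against 22.9% and 26.7% of all tested genes.

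Whether a gene had a 5′ UTR peak went with the length of the gene. The genes tested for expression were split into 10 groups of equal size by the distance from the first to the last base of the gene. In the shortest group, with a median span of 437 bp, 9 of 1387 genes (0.649%) had a 5′ UTR peak, and in the longest, with a median of 27954 bp, 1163 of 1387 (83.9%) had one. The share rose in each group between, through 7.88% in the fifth and 57.8% in the ninth. Peaks in 3′ UTRs varied far less, from 32.2% in the shortest group through 75.3% in the fifth to 92.6% in the longest. With the genes split by expression instead, the share was 10.9% in the lowest group, 29.2% in the seventh and 14.7% in the highest. Genes with a 5′ UTR peak had a median of 3 annotated isoforms, and all tested genes a median of 1.

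**Figure D2:**
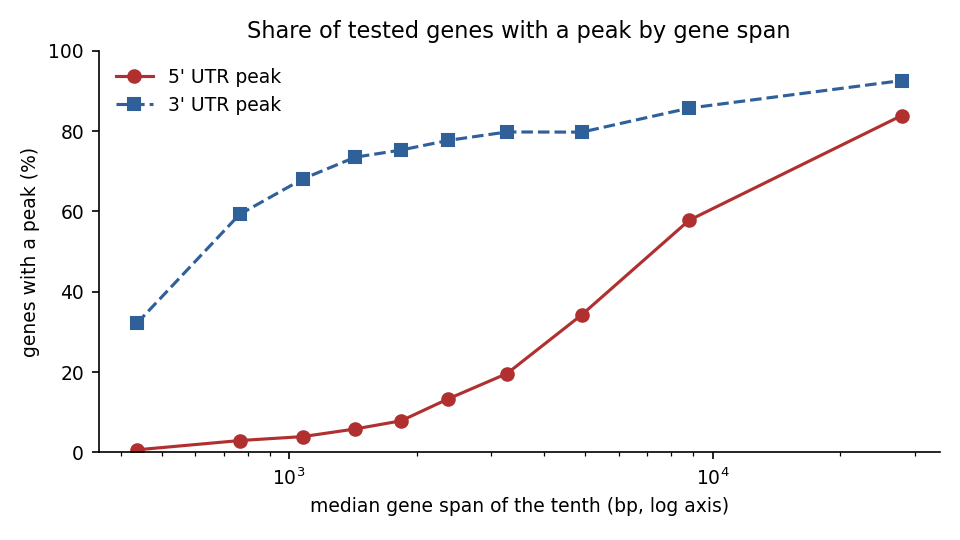
Share of tested genes with a peak in the 5′ UTR (red circles) and in the 3′ UTR (blue squares) against the median gene span of each of the 10 groups, on a log axis in bp. The red line runs from 0.649% to 83.9% and the blue one from 32.2% to 92.6%.

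In 4 chosen gene lists, of neuronal adhesion, channels, kinases with signalling adaptors and transcription factors, most genes had a 5′ UTR peak. Of 38 genes of neuronal adhesion and guidance 36 had one (94.7%), as did 28 of 30 ion channels, 31 of 33 protein kinases and signalling adaptors and 30 of 34 transcription factors, against 23.0% of all tested genes. The median enrichment of the peaks was 4.06, 3.86, 3.61 and 4.20 in these lists. Their genes were long, with median spans of 46581.5, 32023, 18512 and 23300.5 bp, against 2080 bp over all tested genes, and the part of gene span in their shares was not tested. Lower shares were found for actin and microtubule regulators (16 of 31, with the protease gene *rho* counted in) and splicing factors (13 of 27). So it was for m6A writers and readers (3 of 12) and translation initiation factors (6 of 33). Of 25 genes of spermatid differentiation, with a median span of 1203 bp, 2 had one.

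In the list of neuronal adhesion genes, the highest rows were those of *Ten-a*, a teneurin of synaptic partner matching (X, 12197215 to 12230294, log2 enrichment 5.51), *Sema1a* (4.96), *Dscam4* (4.91) and *NetB*, a netrin (4.80). Of its 38 genes, 12 were called higher in mutants (31.6%, against 22.9% of all tested genes) and 2 lower (5.26% against 26.7%). Without *w1118* replicate 1, 18 were higher and 1 lower. *Dscam4* was among the 12, with 1.70, 1.82 and 2.08 FPKM in *w1118* and 3.01, 2.29 and 2.99 FPKM in mutants (log2 fold change 0.39, limma adjusted p = 0.015, and 0.054 and 0.051 without *Mettl16* 1-9 replicate 1 or 3). *Ten-a*, *Sema1a* and *NetB* were not called, but *NetB* was called higher without *w1118* replicate 1 (limma adjusted p = 0.024) and with upper quartile scaling (0.028). Among channels, the rows of the potassium channel *Sh* (5.58), the nicotinic receptor subunit *nAChRalpha6* (5.37), the calcium channel *cac* (5.06) and the calcium-activated potassium channel *SK* (5.01) were highest. Their genes were highest in *w1118* replicate 1, where *cac* had 7.16 FPKM against 3.94 and 3.56 in the other controls and 4.23, 3.82 and 3.88 in mutants. None of these 4 was called with all libraries. Without *w1118* replicate 1, *nAChRalpha6* (limma adjusted p = 0.026) and *SK* (0.046) were called higher. Over the list, 9 of the 29 tested channels were called higher (31.0%, against 22.9% of all tested genes) and 1 lower, and without *w1118* replicate 1 the counts were 12 and 1.

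*ftz-f1* (5.86), *Eip74EF* (5.77) and *Eip75B* (5.40), which act in the response to the steroid hormone ecdysone, led the transcription factors together with the clock gene *Pdp1* (5.37). *Eip74EF* was at 4.57, 3.65 and 3.58 FPKM in *w1118* and at 6.07, 5.57 and 5.53 FPKM in mutants, with no overlap (log2 fold change 0.45, limma adjusted p = 0.0042). *Pdp1* was called lower, from a mean of 20.5 to 16.8 FPKM (-0.28, limma adjusted p = 0.015, and 0.058 without *Mettl16* 1-9 replicate 2), and the other two were not called. Over the list, 14 of 33 tested factors were higher (42.4%, against 22.9% of all tested genes) and 2 lower, and 12 and 2 without *w1118* replicate 1. In the list of kinases and signalling adaptors 16 of 33 were higher (48.5%) and 1 lower, with and without that library. The lower one was *Pkc53E*, a protein kinase C, whose 5′ UTR row had 4.80 and whose call was lost without *Mettl16* 1-9 replicate 1 (limma adjusted p = 0.071) and with a replicate block (0.057). Leaving out each library in turn gave 8 to 18 higher genes for neuronal adhesion and 6 to 12 for channels. It gave 6 factors without *Mettl16* 1-9 replicate 2 and 9 to 12 without any other library. In the kinase list it gave 10 genes without *w1118* replicate 2 and 12 to 16 without any other. With upper quartile scaling, 25 kinase genes (75.8%), 18 of neuronal adhesion (47.4%), 14 channels (48.3%) and 17 factors (51.5%) were higher. Over all tested genes 31.7% were higher with that scaling. Genes of these lists are long, and the part of gene span in the counts was not tested. *CASK* (4.62), the glycogen synthase kinase *sgg* (4.61) and *Gprk2* (4.49) followed *Pkc53E* in the kinase list. Over the cytoskeletal list, 14 of 31 genes were called higher (45.2%, against 22.9% of all tested genes) and 2 lower. Of the 14 higher genes 7 had a 5′ UTR peak, and of the 2 lower ones 1 did. Without *w1118* replicate 1 the counts were 16 and 1, and 10 to 12 were higher without any other library. The highest rows of this list were in *futsch* (4.62), *ena* (4.27), *syd* (4.17) and *rho* (4.06). The last is *rhomboid*, a protease gene of EGFR signalling that the list counts in, and not a cytoskeletal regulator. *ena*, an actin polymerase, was called higher (5.71 to 7.27 FPKM), and *syd* and *rho* were not called. *futsch* was called higher only when *w1118* replicate 1 was left out (limma adjusted p = 0.023) or with upper quartile scaling (0.022). The highest rows of splicing factors were in *fne* (5.86), *Sxl*, *bru3* (4.48) and *x16* (4.42), and none of these was called.

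Of the m6A machinery itself, 3 of 12 genes (25%) had such a peak, near the 23.0% of all tested genes. *fl(2)d*, a subunit of the writer complex, had 3.59 (2R, 13821357 to 13824553). The reader *Ythdf* had 1.20, and *nito*, another writer subunit, a row of 0.52 with an FDR of 0.098. *Ythdf* was at 13.0, 12.3 and 11.7 FPKM in *w1118* and 15.3, 14.9 and 14.7 FPKM in mutants (log2 fold change 0.26, limma adjusted p = 0.0067), while *fl(2)d* and *nito* were not called. Initiation factors had weaker peaks, with *eIF4EHP* (2.44), *eIF5* (2.06), *eIF3j* (1.37) and the cap-binding *eIF4E1* (1.34) as the highest, and none of these 4 was called. Of the 33 factors 8 were higher and 8 lower (24.2% each), near the 22.9% and 26.7% of all tested genes. In the spermatid list, *ntc*, an F-box protein of sperm individualization, had a row of 2.53 and fell from 66.8, 59.1 and 57.9 FPKM to 30.2, 33.3 and 33.7 FPKM. *Tpl94D*, which replaces histones in maturing sperm nuclei (5′ UTR row 1.31), went the other way, from 3.51, 2.77 and 3.35 FPKM to 66.1, 70.2 and 76.4 FPKM (log2 fold change 4.10 on the log2(FPKM + 1) scale, standard error 0.09, limma adjusted p = 1.2e-07). Of the 25 spermatid genes, 19 were called lower (76%, against 26.7% of all tested genes) and 2 higher.

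Transcripts of genes with a 5′ UTR peak were called higher in mutants more often than lower. The question was whether genes with a peak listed in this region in mutants differed in level between the genotypes. Of 3191 such genes that reached a mean of 0.5 FPKM, 1062 (33.3%) were higher and 396 (12.4%) lower at a limma adjusted p under 0.05. Over all 13866 tested genes, 22.9% were higher and 26.7% lower. With libraries scaled to a common upper quartile the balance over all tested genes turned, to 31.7% higher and 23.9% lower, and that of the genes with a 5′ UTR peak was 47.3% higher and 10.2% lower. The median log2 fold change was 0.12 against 0.01 over all genes. Without *w1118* replicate 1, 1128 were higher and 357 lower. The changes were small, as 1109 of the 1458 called genes moved by less than 0.5 on the log2 scale, and 21 rose and 19 fell by more than 1. Genes with a 3′ UTR peak and none in the 5′ UTR were higher in 19.96% and lower in 31.7%. All these peaks are from the mutant list alone, so a gene with more RNA in mutants may be listed more easily. The part of this in the shares was not tested.

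Gene span moved with these shares. In the longest of the 10 groups, 35.3% of the 1163 genes with a 5′ UTR peak were higher and 6.79% lower, against 24.6% and 16.5% of the 224 genes without one. In the ninth group the shares were 37.3% and 9.36% with a peak and 34.5% and 14.9% without. In the eighth they were 39.4% and 9.68% against 27.6% and 18.2%. Short genes showed the opposite order of higher and lower, with or without the peak. At a median span of 764 bp, 22 of 41 genes with a 5′ UTR peak (53.7%) were lower and 3 (7.32%) higher. Without the peak the shares were 43.2% and 12.3%. At a median of 1079 bp, 29 of 55 with a peak (52.7%) were lower and 3 (5.45%) higher, against 40.5% and 16.3% without. Higher calls were also less frequent with a peak at medians of 1433 bp (17.3% against 17.7%) and 1839 bp (15.6% against 19.5%). At 2378 bp (26.5% against 18.8%) and 3270 bp (27.9% against 23.0%) they were more frequent. The difference between genes with and without the peak at a given span was not tested. The lower spermatid and accessory gland markers moved in the same libraries, and their part in the calls of short genes was not tested.

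**Figure D3:**
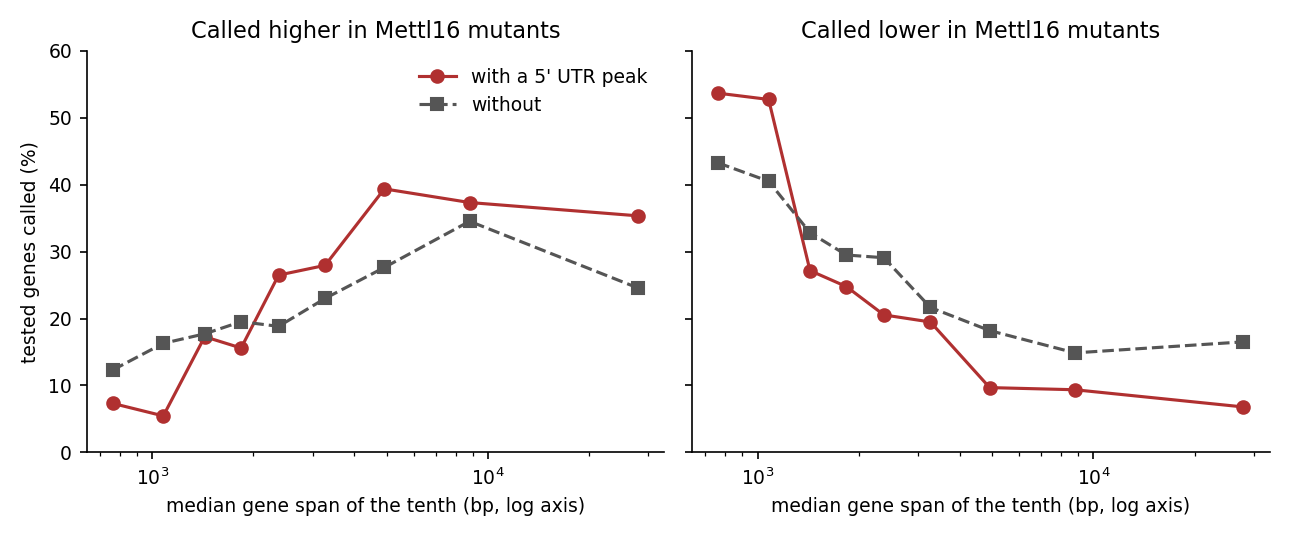
Share of tested genes called higher (left) and lower (right) in *Mettl16* mutants by limma, for genes with (red circles) and without (grey squares) a 5′ UTR peak, against the median gene span of each of the 10 groups on a log axis; the shortest group, with 9 genes that had a peak, is left out. In the longest group 35.3% of the genes with a peak and 24.6% of those without were called higher.

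The isoforms that start at these peaks had smaller shares of calls than the genes. There were 7721 isoforms whose 5′ end lay between the first and last base of a 5′ UTR peak, spanned introns included, or within 50 bases. Of these, 5221 were tested, of which 567 (10.9%) were higher and 342 (6.55%) lower. Over all 23974 tested isoforms, 10.6% were called higher and 14.4% lower. The share of higher isoforms was thus near that of all isoforms, and the share of lower ones was smaller. The median log2 fold change of the isoforms at the peaks was 0.11, against 0.01 over all tested isoforms. For genes with a 5′ UTR peak it was 0.12, against 0.01 over all tested genes. Without *w1118* replicate 1, 481 were higher and 278 lower. Leaving out *Mettl16* 1-9 replicate 1 or 2 brought the higher calls to 366 and 350. With a replicate block 312 (5.98%) were higher and 234 (4.48%) lower, against 6.32% and 9.51% of all isoforms. The other isoforms of the same genes, which start elsewhere, were higher in 9.23% and lower in 7.11% of 2969. Their share of calls was thus not far from that of the isoforms at the peaks, and their median log2 fold change was 0.08.

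In the differential table, peaks in 5′ UTRs were more often higher than lower in mutants. The table holds only peaks with P under 0.05, and its values are pooled over replicates. Of the 624 rows in 5′ UTRs, 352 (56.4%) had a log2 fold change of enrichment above 0 and 272 below, against 45.7% above 0 over all rows and 39.0% in 3′ UTRs. Their median was 0.23 (quartiles -0.41 and 0.51), and that of 3′ UTRs -0.24. The order was the same at an FDR under 0.05, where 199 of 325 rows (61.2%) were above 0, against 40.2% in 3′ UTRs. It also held on each of the 5 large chromosome arms, with 52.8% to 61.4% above 0 in 5′ UTRs and 33.2% to 43.2% in 3′ UTRs. Coding exon rows were above 0 in 74.6%.

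Large changes were few. At P under 0.05, 29 rows in 28 genes had a log2 fold change below -1 and 34 rows in 31 genes had one above 1, which is 4.65% and 5.45% of the 5′ UTR rows. Over all rows of the table the same limits were passed by 6.02% and 4.4%, so neither share stood far from the background. An FDR under 0.05 was also met by 15 of the lower and 24 of the higher rows. The remaining 561 rows (89.9%) lay within 1 of 0. Of all 624 rows, 593 (95.0%) overlapped a peak of the same gene in the mutant list, of whatever annotation. Of the 34 higher rows 32 (94.1%) did, which is near that share, and of the 29 lower rows 17 (58.6%). The mutant list holds peaks called in mutants alone, so fewer overlaps of lower rows follow in part from how the rows were split.

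**Figure D4:**
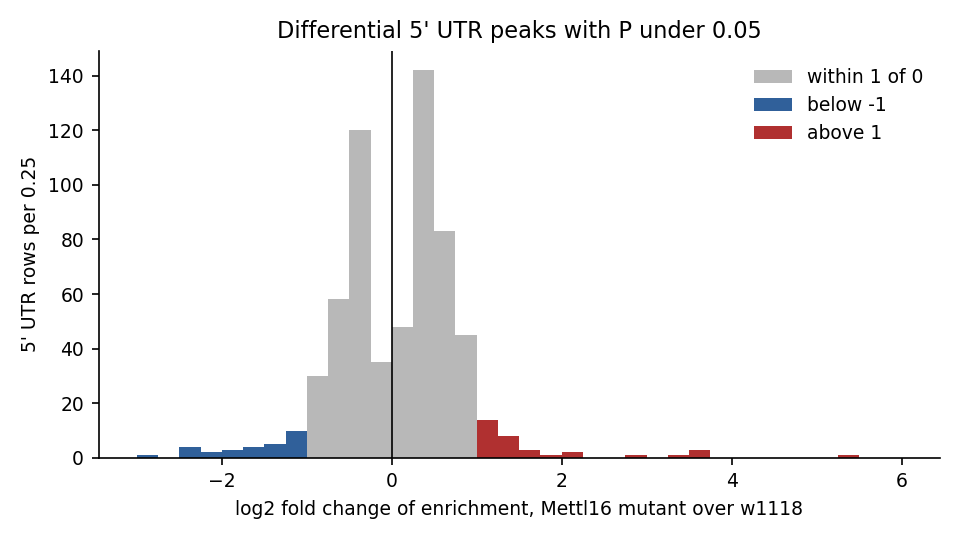
Number of 5′ UTR rows of the differential table by their log2 fold change of enrichment, *Mettl16* mutants over *w1118*, in steps of 0.25; blue marks the 29 rows below -1, red the 34 rows above 1 and grey the 561 rows between. The rows around 0 are few because the table lists only peaks with P under 0.05.

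The lower 5′ UTR peak with the smallest P was in *CG7781* (2L, 8322925 to 8325261), with a log2 fold change of -1.96. Next was *Nrg*, which encodes the L1-type adhesion protein Neuroglian, with -1.14. Its peak lay 14016 bp downstream of the nearest annotated start, and none of the 8 isoforms of the gene starts there. In *Doa*, a LAMMER kinase that phosphorylates SR splicing factors, the peak at 3R, 28888492 to 28889277 had -2.12 and no counterpart in the mutant list. The peak of *side-VIII*, of the Sidestep immunoglobulin family, had -2.26 (2R, 20424338 to 20429564), and that of *dmGlut* -1.70. *CG7888* had -1.53, *RanGAP* -1.87, the UDP-glycosyltransferase gene *Ugt301D1* -1.12, *CG42700* -1.42 and the cytochrome P450 gene *Cyp317a1* -1.35, the last in 2 overlapping rows.

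Of these 10 genes, 6 were called higher in the input libraries and 1 lower, where 22.9% and 26.7% of all tested genes were. *CG7781* was at 36.0, 36.7 and 35.5 FPKM in *w1118* and at 51.7, 54.2 and 49.9 FPKM in mutants (log2 fold change 0.51, limma adjusted p = 0.00017). *Nrg* was at 16.5, 15.9 and 16.5 FPKM in *w1118* and at 21.7, 19.5 and 19.1 FPKM in mutants (0.29, standard error 0.06, limma adjusted p = 0.0064). *dmGlut* had 9.43, 11.6 and 12.4 FPKM against 17.2, 18.3 and 19.3 FPKM (0.67, limma adjusted p = 0.00087). *Doa*, *CG7888* and *RanGAP* were called higher as well, with log2 fold changes of 0.25, 0.44 and 0.94. *CG42700* was lower, at 5.43, 6.28 and 5.53 FPKM in *w1118* and 3.35, 3.67 and 3.50 FPKM in mutants (-0.58, limma adjusted p = 0.00047). *side-VIII*, *Ugt301D1* and *Cyp317a1* were not called, except that *side-VIII* was called higher without *w1118* replicate 3 (limma adjusted p = 0.038) and with upper quartile scaling (0.032). The input libraries enter both the enrichment of a peak and the level of its gene, so the 2 measures are not independent.

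*RanGAP*, the GTPase-activating protein of Ran in nuclear transport, changed in which of its starts was used beside a lower peak. The peak (2L, 19441989 to 19442196) lies 30 bp downstream of a start at 19441959 that 2 of the 3 annotated isoforms use. One of these 2 rose from 3.98, 2.75 and 1.53 FPKM in *w1118* to 10.2, 13.4 and 13.8 FPKM in mutants (log2 fold change 1.89, standard error 0.27, limma adjusted p = 0.0048 over all isoforms). The other was at 0.249 FPKM in *w1118* replicate 1, was listed at 0 in replicates 2 and 3, and had 2.74, 1.63 and 2.65 FPKM in mutants (limma adjusted p = 0.0030). The isoform that starts further along the gene, at 19445048, fell from 4.70, 5.15 and 6.25 FPKM to 1.0, 0.184 and 0.382 FPKM (-2.09, standard error 0.23, limma adjusted p = 0.0021). Isoforms starting at the peak thus made up 47.4%, 34.8% and 19.7% of the gene's isoform FPKM in *w1118* and 92.8%, 98.8% and 97.7% in mutants. The gene as a whole had 8.14, 7.05 and 6.76 FPKM in *w1118* and 13.5, 15.0 and 16.5 FPKM in mutants (0.94, standard error 0.09, limma adjusted p = 0.00013). The peak itself was absent from the mutant list.

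Among higher peaks, *CG31988* (2L, 21202170 to 21202478) had the smallest P, with a log2 fold change of 2.07, although no row of the gene overlapped it in the mutant list. *Skadu* followed with 1.31 (2L, 15547519 to 15547749), at the single start of its 1 isoform. *mys*, the beta subunit of the PS integrins, had 1.57 (X, 8061824 to 8062063), and *Svil*, a supervillin of the actin-binding gelsolin family, 1.68 over a span of 11295 bp (3L, 2418027 to 2429321). *Rh50*, an Rh family ammonium transporter, had 1.05, the pigment gene *red* 1.24, and *CG13168* 1.15. *orb2*, a CPEB family regulator of translation needed for long-term memory, had 1.09 and, in an overlapping row, 1.05. *CG18324* (1.71) and *CG10660* (1.34) completed the 10.

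Of these 10 genes, 5 were called lower in the input libraries and 2 higher, against 26.7% and 22.9% of all tested genes. *CG31988* was at 320.6, 304.4 and 284.8 FPKM in *w1118* and at 211.1, 235.1 and 235.8 FPKM in mutants (log2 fold change -0.41, limma adjusted p = 0.0018). *Skadu* had 33.2, 30.0 and 29.6 FPKM against 15.8, 18.0 and 19.8 FPKM (-0.76, standard error 0.09, limma adjusted p = 0.00028). *orb2* had 55.6, 48.0 and 48.7 FPKM against 31.4, 35.1 and 36.1 FPKM (-0.56, limma adjusted p = 0.00076). *CG13168* and *CG10660* were called lower as well, with log2 fold changes of -0.76 and -0.32. *mys* was higher, at 43.3, 40.6 and 40.3 FPKM in *w1118* and 56.5, 53.9 and 52.1 FPKM in mutants (0.38, limma adjusted p = 0.0010), and so was *Rh50*, from a mean of 16.1 to 19.8 FPKM, except when *Mettl16* 1-9 replicate 2 or 3 or *w1118* replicate 1 was left out (limma adjusted p between 0.056 and 0.076). *Svil*, *red* and *CG18324* were not called.

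**Figure D5:**
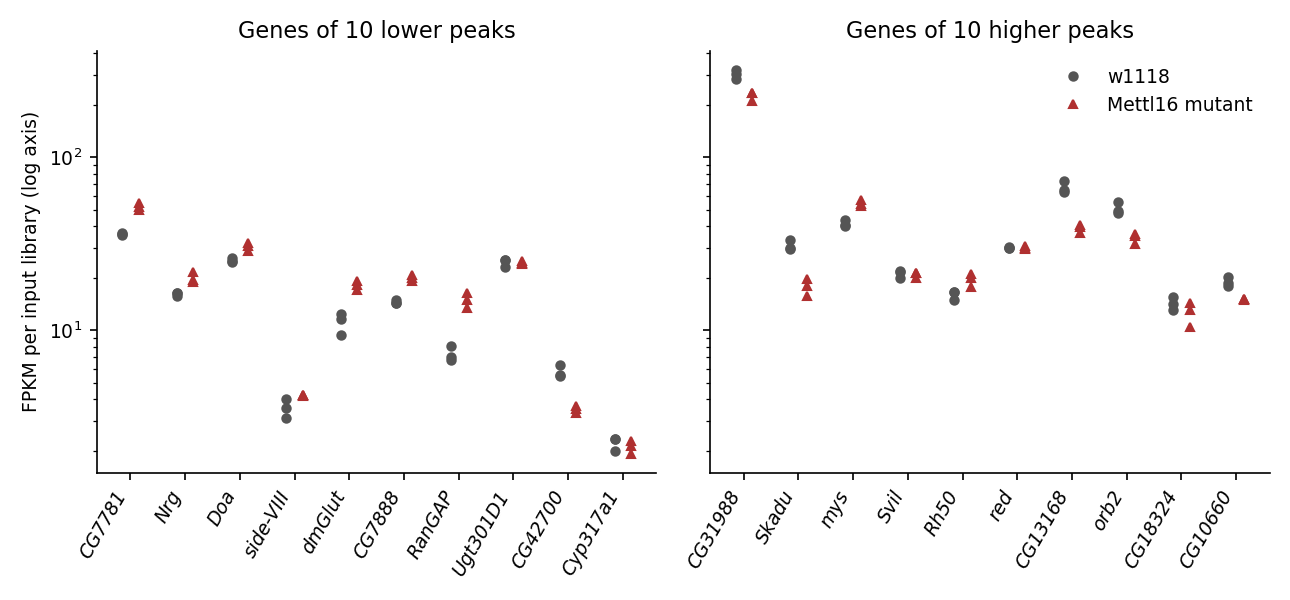
FPKM in each of the 6 input libraries (log axis) for the genes of the 10 lower (left) and 10 higher (right) 5′ UTR peaks with the smallest P; grey circles are the 3 *w1118* libraries and red triangles the 3 *Mettl16* mutant libraries. *RanGAP* lies between 6.76 and 8.14 in *w1118* and between 13.5 and 16.5 in mutants, and *Skadu* between 29.6 and 33.2 and between 15.8 and 19.8.

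Isoforms of *mys* and *CG13168* also changed in composition, but without a change of start. All 4 isoforms of *mys* begin at the same base, 179 bp upstream of the peak. One of them (FBtr0340137) rose from 3.68, 3.74 and 4.29 FPKM to 28.8, 20.9 and 19.7 FPKM (log2 fold change 2.28, limma adjusted p = 0.00055), and another (FBtr0340136) fell from 10.5, 13.4 and 11.8 FPKM to 1.0, 2.60 and 3.35 FPKM (-2.03, limma adjusted p = 0.0056). In *CG13168*, where all 3 isoforms start at the first base of the peak, one (FBtr0087999) was at 9.42, 10.4 and 12.0 FPKM in *w1118* and is listed at 0 in the 3 mutant libraries. In *Svil*, isoforms starting between the first and last base of its long peak held 15.9%, 8.81% and 14.3% of the isoform FPKM in *w1118*. In mutants they held 29.2%, 27.0% and 27.4%, with 1 of the 3 tested called higher. Shares of single isoforms are estimates from reads that isoforms have in common, and in *CG7781* the isoform at the lower peak ranged from 3.99% to 73.0% among the controls alone.

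Over all 28 genes with a lower 5′ UTR peak, 10 (15 with upper quartile scaling) were called higher in the input libraries, 5 lower and 12 not, and 1 was not tested. Over the 31 genes with a higher peak, 8 (5 without *Mettl16* 1-9 replicate 2) were called higher, 9 lower and 13 not, and 1 was not tested. The background of all tested genes is 22.9% higher and 26.7% lower. With upper quartile scaling it is 31.7% higher and 23.9% lower, and without *Mettl16* 1-9 replicate 2 it is 17.95% higher. *Acp1*, an adult cuticle protein gene at 2273 to 2402 FPKM in *w1118* and 2312 to 2505 FPKM in mutants, had the highest fold change, 5.28, and no overlapping peak in the mutant list. *CG12702* had the lowest, -2.87, with an FDR of 0.089. *Mical*, the actin-oxidizing enzyme of axon guidance, had 2 separate higher rows, of 1.12 and 1.49, and was called lower, at 35.0, 27.6 and 31.4 FPKM in *w1118* and 27.2, 23.3 and 23.0 FPKM in mutants (log2 fold change -0.34, limma adjusted p = 0.021). This call was lost without *Mettl16* 1-9 replicate 2 or 3 or *w1118* replicate 1 or 3, and with no filter on low genes (limma adjusted p between 0.057 and 0.069).

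Peaks at the 2 ends of a transcript had opposite signs about as often as the same sign. The differential table held 169 pairs of a 5′ UTR row and a 3′ UTR row, in 138 genes. Both were below 0 in 56 pairs and both above 0 in 24, while the 5′ UTR was above and the 3′ UTR below 0 in 68 pairs, and the reverse was found in 21. Signs were thus opposite in 89 pairs (52.7%) and the same in 80, with 92 of the 5′ UTR rows and 45 of the 3′ UTR rows above 0. In *tacc*, a centrosomal protein of microtubules, the 5′ UTR row had 0.50 (3R, 4745887 to 4748366) and the 3′ UTR row -2.0 (3R, 4733654 to 4733863), and the gene was higher in mutants (27.5 to 35.6 FPKM on average). In *Lst*, the hormone Limostatin, the values were 0.33 and -1.97, and the gene fell from 27.2, 25.4 and 26.0 FPKM to 10.5, 12.0 and 9.51 FPKM (log2 fold change -1.23, limma adjusted p = 2.7e-05). *Root*, the rootletin of sensory cilia, had 2.07 in the 5′ UTR, with an FDR of 0.23, and -0.29 in the 3′ UTR. Against coding exons, *Doa* had -2.12 in the 5′ UTR and 0.61 in the exon, and *CG32264* 0.51 and -6.31. Among the 41 genes with more than 1 5′ UTR row in the table, the rows were all below 0 in 19, all above 0 in 13 and on both sides in 9.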

How the data were processed

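Per the labels, the libraries came from poly(A) RNA of whole males. The authors trimmed reads with fastp, aligned them with HISAT2, called and compared peaks with exomePeak and annotated them with ANNOVAR; the log2 enrichment, log2 fold change, p-value and FDR of each peak are the authors' deposited values for 3 replicates together. Peak positions count from 0 in the files and are given here from 1. The authors computed FPKM and the read coverage of isoforms with StringTie from the input libraries, and depth was derived here from the deposited coverage divided by FPKM. Other per-sample columns (9 of genes, 18 of isoforms) were left out, as were the deposited fold changes and p-values of genes, the *w1118* peak list and the IP coverage. No genome sequence was used, so no sequence is shown.

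Genes and isoforms with a mean of at least 0.5 FPKM were tested on log2(FPKM + 1) with limma 3.58.1 with a trend (R 4.3.3, two-sided, Benjamini-Hochberg adjusted p under 0.05 over all tested), after the fit was tested on simulated data; fold changes are on that scale and understate the change of low genes. The libraries are biological replicates per the study's methods. A rank test of 3 against 3 was not used. Peaks were called changed at P under 0.05 and a log2 fold change over 1 or below -1. Tables were joined by gene identifier with Python 3.11.15, pandas 2.3.3 and NumPy 2.4.6, and figures were drawn with matplotlib 3.10.9. Of 265 entries in 9 gene lists, 263 matched a gene.

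Named are the 10 lower and 10 higher changed peaks with the smallest P, the 10 highest enrichments in genes of at least 5 FPKM, the 5 genes with the most rows, genes the study's text mentions (*Tor* for the TOR pathway), up to 4 genes per list, the 5 largest gaps between annotations in the differential table, and the 5 largest in each direction in the mutant list. *Mical*, *Acp1* and *CG12702* were added after their values were seen. The peaks, lists and rules were chosen with earlier results of these data known. Alternatives were another pseudocount, filters, scaling, a replicate block, leaving out each library, and other limits for peaks.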

Additional observations from a re-analysis of the deposited data

How the results depend on the processing

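With an FDR under 0.05 and a log2 fold change beyond 1, 15 lower and 24 higher 5′ UTR peaks remained in count, against 29 and 34 at P under 0.05. Without the limit of 1 the counts were 272 and 352, and with a limit of a 1.5-fold change they were 90 and 127. One row per region left 29 and 34. Over the 6 fits that left out a library, 773 to 1128 genes with a 5′ UTR peak were higher and 325 to 357 lower, and 350 to 481 isoforms starting at a peak were higher and 274 to 312 lower. Libraries with the same replicate number did not deviate together over the tested genes (correlations of -0.036, -0.061 and -0.027). The labels do not say whether they shared a preparation. With a replicate block, 849 genes were higher and 331 lower, and the isoform counts were 312 and 234. A pseudocount of 0.1 FPKM, no filter or a filter of 2 FPKM, and starts within the peak itself kept every count of calls within 1.5 times, as did scaling to the upper quartile, with 1509 genes higher and 324 lower. The share of 5′ UTR rows in the list, of starts inside the peaks and of genes with the higher 5′ UTR peak stayed within counting error under each alternative. Of 1341 values for 123 named genes under the alternatives of the limma fit, 48 lost and 27 gained a call and 0 turned direction with a call. Upper quartile scaling also called *Rheb*, *nito*, *eIF3j*, *CASK* and *sgg* higher, and *eIF4E1* was called higher with it and with no filter. The planned search for sequence motifs was not run, because no genome was used here. The tables do not give the depth of IP libraries, and peaks have no replicate error.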
